A study of Mus musculus with 14 samples.

Results

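The transcriptome against which these testis libraries were quantified held, beside the Ensembl transcripts, a set of transcripts assembled from testis RNA, and the 200 most abundant of these assembled entries are described here. An entry was taken when its identifier began with TCONS and its expected count was at least 10 in all 3 wild-type input libraries. The entries that met this were ranked by their mean TPM over the same 3 libraries. TPM is a level per length, scaled to a sum of 1000000 in every library. The rule kept 200 of 11206 entries that passed the count minimum, out of 48888 assembled entries and 182829 deposited entries in all. The members were thus selected on their wild-type input counts and TPM, so comparisons that use those libraries are given as descriptions and tests are read only where those libraries took no part.

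Testes came from C57BL/6 males at 21 dpp, namely 4 Adad2 mutants (Adad2 M/M, animals 12, 69, 93 and 94) and 3 wild-type animals (Adad2 +/+, animals 17, 121 and 140). Animals of both genotypes were heterozygous for Rpl22-HA, a tagged ribosomal protein gene, and for Stra8 iCre. Stra8 drives Cre in differentiating spermatogonia, so ribosomes carry the tag in those cells and their descendants and not in Sertoli or Leydig cells. Each animal gave an IP library of RNA pulled down with the HA tag and an input library of whole testis lysate, 14 libraries in all.

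The testis transcribes more of the genome than most tissues, and much of that RNA arises in meiotic and post-meiotic germ cells. It includes long noncoding RNAs, copies of genes inserted as retrogenes, and testis forms of genes known from other tissues. RNA that is bound by ribosomes is pulled down with the HA tag, whereas RNA that stays in the nucleus or lies in somatic cells is depleted from IP relative to input. The ratio of IP to input (ribosome association) thus depends on the cell type that holds an RNA as well as on its ribosome load.

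The tables gave each assembled entry an identifier and a length, and no sequence, position or gene name was used for them here. The study's methods describe the added set as both genes and isoforms, so that an entry may be a further form of an annotated gene. The expected counts bear on this. A fractional count means that reads were divided between entries. Counts were fractional in all 14 libraries for 132 of 200 members and whole in all 14 for 0, where a 0 was taken as whole (tolerance 0.005). TCONS_00063784 and TCONS_00063785, both of 392 bases, had identical values in every library and share their reads. No other pair among the members was identical, nor was any member identical to an Ensembl transcript.

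The libraries held 25037235 to 30871330 expected counts in IP and 22987974 to 30330450 in input. Adad2 had 4.30 to 8.35 TPM in mutant IP, against 68.9 to 76.2 TPM in wild-type IP, a log2 difference of -3.44 (standard error 0.24, edgeR adjusted p = 0.0140). In input it had 1.92 to 4.06 TPM in mutants and 11.75 to 11.9 TPM in wild type, so all libraries matched their genotype labels. Adad2 does not check the labels of fraction or animal number. Mutant IP libraries held 5521 to 7423 assembled entries above 0, against 13476 to 16512 in wild-type IP. In input the numbers were 8198 to 21273 in mutants and 20700 to 23917 in wild type, with animal 94 within the wild-type range. Annotated genes above 0 were fewer too, at 12807 to 15109 in mutant IP, against 19791 to 22056 in wild-type IP. In input they numbered 15514 to 27207 in mutants and 25492 to 27986 in wild type. Fewer features above 0 in mutant libraries were thus not particular to assembled entries. Of the 11006 assembled entries past the count minimum that are not members, 59.3% to 69.5% were at 0 in mutant IP libraries and 20.6% to 30.6% in wild-type IP libraries. In mutant input the share was 49.7% and 54.1% in animals 12 and 69, 24.4% in animal 93 and 7.76% in animal 94, and in wild-type input it was 0 by the rule. The 7SL and 7SK RNAs (Rn7s1, Rn7s2 and Rn7sk) took 2.82% to 7.56% of all TPM in IP and 53.8% to 65.5% in input, which lowers the TPM of every other entry in input. IP and input are therefore compared below in CPM, counts per 1000000, with TMM scaling, a factor that sets aside the most different features.

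The members were short for assembled transcripts. Their length column ran between 204 and 18446 bases with a median of 1534.5 (quartiles 846.5 and 2796.5), against a median of 4068.5 for the other assembled entries past the count minimum. Under 500 bases lay 21 of 200 members (10.5%), against 64 of the 11006 others (0.582%). The shortest were TCONS_00090792 (204 bases), TCONS_00039004 (224) and TCONS_00135912 (227), and the longest were TCONS_00095324 (18446), TCONS_00056167 (8819) and TCONS_00086803 (8497). TPM divides a count by the effective length, the number of positions a fragment can start from, and this lies far below the length for a short entry. For the 204-base TCONS_00090792 it was 49.0 to 57.8 bases over the mutant libraries and 48.7 to 54.2 bases over the wild-type libraries. A ranking by length-free CPM in the same wild-type input libraries shared 88 of 200 members, and a ranking by TPM in mutant input shared 161.

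**Figure D1:**
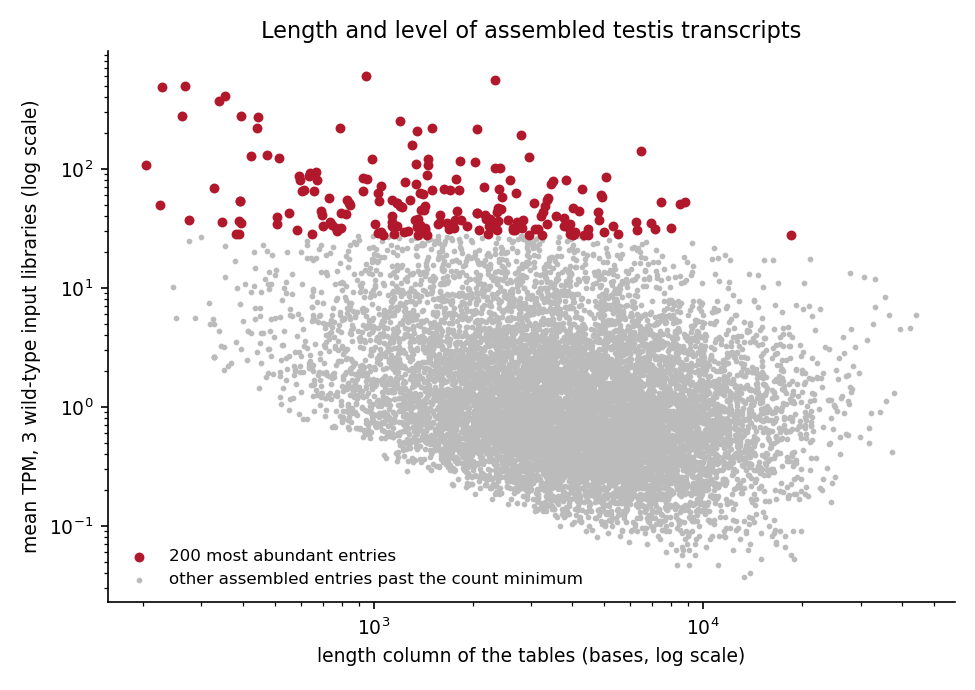
Mean TPM in 3 wild-type input libraries (vertical, log scale) against the length column in bases (horizontal, log scale) for the 200 members (red) and the other 11006 assembled entries with at least 10 counts in each of these libraries (grey). The members fill the top of the range from 27.6 to 605 TPM, and 21 of them are under 500 bases, against 64 of the others.

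Mean wild-type input TPM, the measure that chose the members, was between 27.6 and 605 with a median of 43.2, against a median of 0.953 for the other 11006 entries. Of Ensembl transcripts, 2223 lay at or above the level of the last member and 30 above the first. The first 2 members held 7.87% of the TPM of all 200, the first 10 held 27.2% and the first 50 held 58.5%. At the edge of the rule, TCONS_00006770 (27.62 TPM) and TCONS_00113039 (27.58 TPM) were the last inside, and TCONS_00123284 (27.55 TPM) and TCONS_00078384 (27.46 TPM) the first outside. The members took 3.10% to 3.70% of all counts in mutant IP and 3.43% to 3.77% in wild-type IP. In mutant input they took 2.49% to 2.84% and in wild-type input 2.69% to 3.12%. Within groups, the median coefficient of variation of a member's TPM was 32.9% in mutant IP, 16.6% in wild-type IP, 26.2% in mutant input and 17.2% in wild-type input.

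The 12 most abundant members differed widely in ribosome association. Of these, 8 are under 500 bases long, and in mutants 4 were called higher in IP than in input and 1 lower. Among all features with a mean log2 CPM of at least 5, 22.7% were called higher and 10.7% lower. TCONS_00144636, the first by level with 948 bases, had 1724, 1216, 1284 and 1198 CPM in mutant IP (animals 12, 69, 93 and 94), against 607, 426, 509 and 504 CPM in mutant input. Every IP library lay above every input library, and the log2 IP/input was 1.40 (standard error 0.07, edgeR adjusted p = 0.000808). In wild-type animals 17, 121 and 140 this entry had 1839.8, 1904 and 2134 CPM in IP and 599.7, 662 and 582 CPM in input.

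TCONS_00053760, the second by level with 2334 bases, went the other way. It had 438, 357, 401 and 359.5 CPM in mutant IP, against 962, 1237, 1402 and 1313 CPM in mutant input, and the fractions did not overlap (log2 IP/input -1.65, standard error 0.13, edgeR adjusted p = 0.00187). Wild-type IP held 562, 599 and 491 CPM and wild-type input 1344, 1859.5 and 1494.5 CPM. So the first member was the more abundant in ribosome-bound RNA, and the second in whole testis RNA, in both genotypes.

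TCONS_00022960, the tenth by level with 1202 bases, had the highest IP level of the 12, at 1942, 2312, 2616 and 2524 CPM in mutant IP against 557, 886, 512 and 407 CPM in mutant input (log2 IP/input 2.04, standard error 0.29, edgeR adjusted p = 0.0166). Wild-type IP held 2224, 2923 and 2664 CPM and wild-type input 331, 396 and 289 CPM. TCONS_00056223 (396 bases) had 273, 333, 326 and 291 CPM in mutant IP, against 82.7, 80.1, 76.9 and 80.8 CPM in mutant input (log2 IP/input 1.93, standard error 0.13, edgeR adjusted p = 0.00143). Its input values were close to each other in all 4 animals, and its IP values were all higher. The 227-base TCONS_00135912 had 105, 114, 217 and 158 CPM in mutant IP, against 55.0, 54.2, 86.6 and 76.9 CPM in mutant input (log2 IP/input 1.09, standard error 0.15, edgeR adjusted p = 0.00876). Animals 93 and 94 were the higher pair of mutants in both fractions.

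Of the 12, 3 were scarce and uneven in IP. TCONS_00095406 (340 bases) had 10.7, 0.14, 7.65 and 1.42 CPM in mutant IP, against 124, 89.5, 123 and 117 CPM in mutant input. TCONS_00054454 (446 bases) had 25.9, 25.5, 2.30 and 1.62 CPM in mutant IP, against 51.0, 102, 68.8 and 59.6 CPM in mutant input. TCONS_00008433 (354 bases) had 3.55, 0, 24.8 and 19 CPM in mutant IP, against 61.7, 98.6, 92.4 and 56.0 CPM in mutant input. Every IP library lay below every input library for each of them, but the mutant IP libraries spread over more than 10-fold, and adjusted p was 0.0851, 0.103 and 0.394 in that order. In wild type, TCONS_00095406 had 14.2, 2.61 and 4.96 CPM in IP and 81.2, 77.0 and 93.2 CPM in input. The other 4 members of the 12, TCONS_00060434, TCONS_00037298, TCONS_00132512 and TCONS_00051281, had log2 IP/input values between -0.61 and 1.22 in mutants and did not pass the test.

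**Figure D2:**
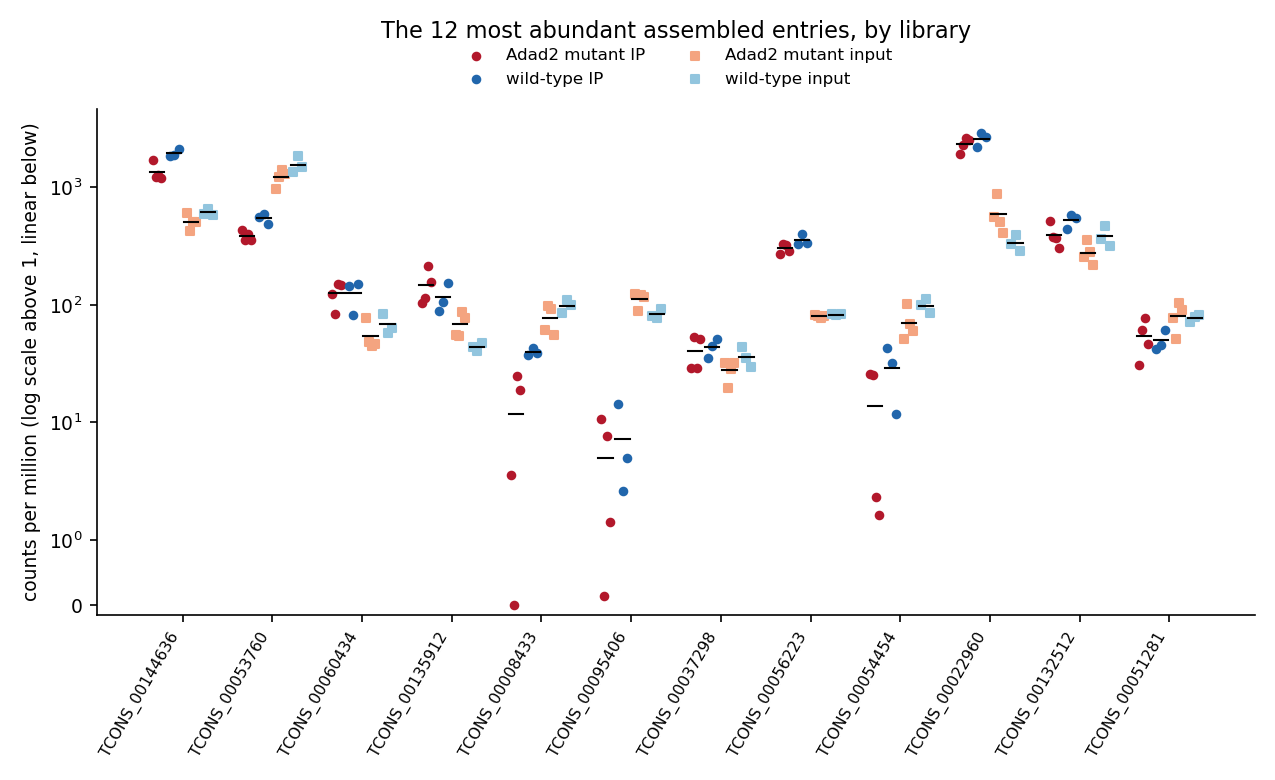
CPM of the 12 most abundant members (horizontal, in order of wild-type input TPM) in each library (vertical, log scale above 1 and linear below), with mutant and wild-type IP as dark circles and mutant and wild-type input as light squares. Black bars are group means of 4 mutants or 3 wild-type animals. TCONS_00144636, TCONS_00056223 and TCONS_00022960 lie higher in IP in every animal, and TCONS_00008433, TCONS_00095406 and TCONS_00054454 spread over more than 10-fold among mutant IP libraries.

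Values of 0 were frequent among abundant members. Only 160 of 200 members were above 0 in all 14 libraries, and 150 had 100 or more counts in all 14. At least 1 mutant IP library was at 0 for 34 members and at least 1 wild-type IP library for 7. In mutant input this held for 12 members, all in animals 12 and 69. These were not rare entries, since 32 of the 34 members in mutant IP and all 12 in mutant input had 100 or more counts in another library of the same group. Members at 0 made up 5.0% to 8.5% of the 200 in mutant IP and 1.0% to 3.0% in wild-type IP, less than the shares given above for other assembled entries in the same libraries. The members were chosen for high TPM, so a smaller share at 0 was favoured by the rule and is a description only. Mutant IP libraries also held fewer annotated genes above 0, as given above, so more zeros there were not particular to the members.

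The most extreme case was TCONS_00138129 (3771 bases). It had 384, 1653, 218 and 0 CPM in mutant IP and 0, 502 and 0 CPM in wild-type IP, with 10376, 48148, 6813 and 0 counts behind the first and 0, 12130 and 0 behind the second. In input it had 391, 621, 61.8 and 266 CPM in mutants and 124, 257 and 150 CPM in wild type. Large counts in 1 animal stood beside 0 in another of the same genotype. TCONS_00136478 (2828 bases) had 0 CPM in mutant IP of 3 animals and 49.5 CPM in animal 94, against 134, 244.5, 88.2 and 72.2 CPM in mutant input and 74.8, 114 and 73.9 CPM in wild-type IP. TCONS_00062900 (1286 bases) was at 0 in all 3 wild-type IP libraries, against 88.8, 74.4 and 76.0 CPM in wild-type input, which is at least 667-fold lower with 0 read as 3 counts per library. This bound covers counting error only. In mutants it had 0, 9.27, 0 and 0 CPM in IP, against 105, 54.2, 58.7 and 70.7 CPM in input.

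Ribosome association in mutants did not use any library of the rule. With animals as blocks, 198 members were tested, of which 43 (21.7%) were called higher in IP and 15 (7.58%) lower in edgeR. Of the 22918 features tested in all, 6.35% were called higher and 3.56% lower (9.91% together). The median log2 IP/input of the members was 0.05 (quartiles -1.04 and 0.92), against -0.63 over all features. All 43 members called higher had a ratio above 1 in 4 of 4 mutants, and all 15 called lower had one below 1. The calls were made on these same pairs of libraries, which favours such agreement, so it is a description only. The sizes ran up to 3.46 among the members called higher and down to -3.49 among those called lower.

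Calls are made more readily for abundant features, so classes were also set side by side at a mean log2 CPM of at least 5. There 23.4% of 175 members were called higher and 8.57% lower, against 22.7% and 10.7% of all 6188 features, so the share of calls among members was near that of any feature as abundant. At that level the median log2 IP/input was 0.16 for members, 0.05 for 741 other assembled entries, 0.32 for protein-coding genes and 0.84 for 57 processed pseudogenes. It was -1.12 for 28 lincRNA genes and -1.63 for 9 antisense genes. At a mean log2 CPM of at least 2, which adds scarcer features, it was 0.05 for members, 0.02 for protein-coding genes, 0.29 for processed pseudogenes, -1.53 for the other assembled entries, -2.11 for lincRNA genes and -1.99 for antisense genes. The members' median lay above those of the lincRNA and antisense classes and below that of processed pseudogenes at both levels. Its distance to the other assembled entries was small at the higher level. These are descriptions of lists, and no test between classes was made.

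**Figure D3:**
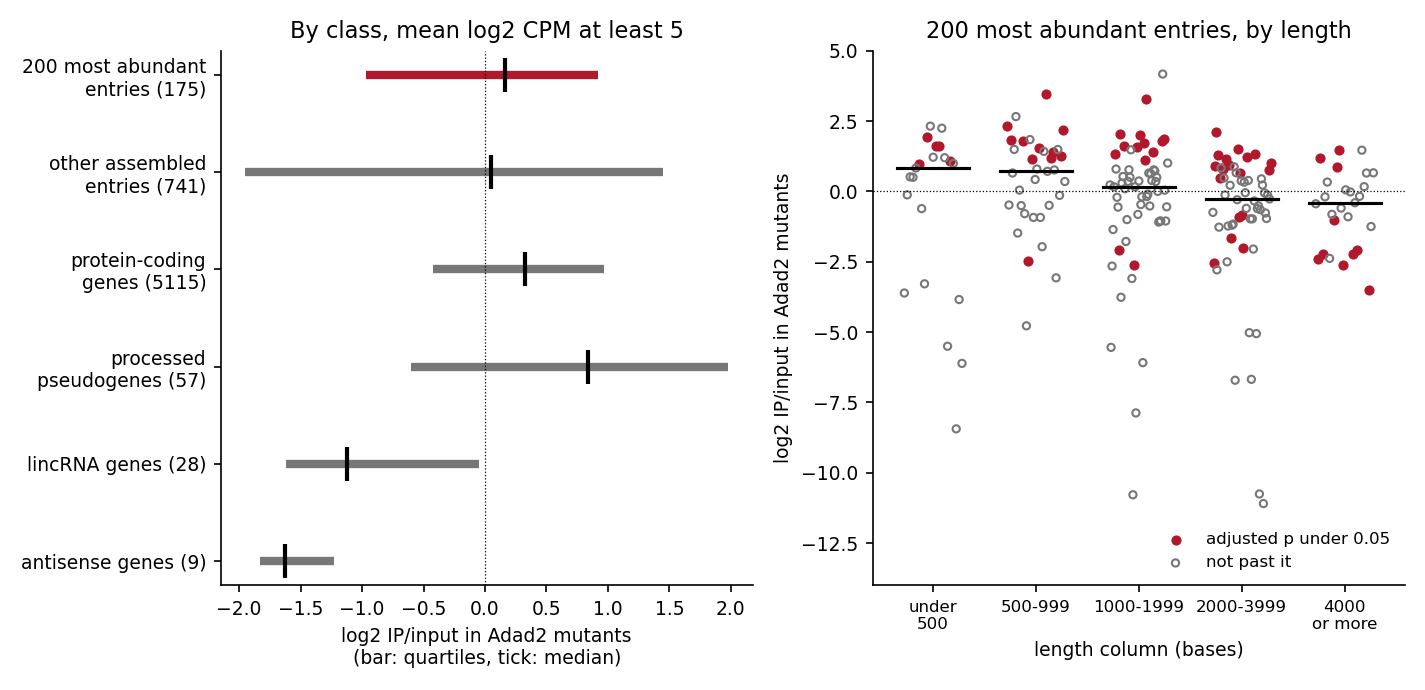
Left, log2 IP/input in 4 Adad2 mutants for members and other classes of features with a mean log2 CPM of at least 5 (number of features in brackets), with bars for the quartiles and ticks for the median. Right, log2 IP/input of the 198 members tested (vertical) by length class in bases (horizontal), filled where the edgeR adjusted p was under 0.05, with a black line at each class median. The members' median of 0.16 lies between the 0.05 of other assembled entries and the 0.32 of protein-coding genes, and length class medians run from 0.83 under 500 bases to -0.42 at 4000 bases or more.

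Among the members higher in mutant IP, TCONS_00125218 (517 bases) had the largest called value. It had 174, 329, 301 and 245 CPM in mutant IP, against 17.6, 24.3, 30.9 and 21.3 CPM in mutant input (log2 IP/input 3.46, standard error 0.15, edgeR adjusted p = 0.000791). Every IP value lay far above every input value. TCONS_00091521 (1343 bases) had 1666, 2802, 2565 and 2509 CPM in mutant IP, against 57.6, 459, 309.7 and 383 CPM in mutant input (log2 IP/input 3.28, standard error 0.47, edgeR adjusted p = 0.0244). Its low input value came from animal 12, and its call was lost without animal 69, 93 or 94, with values of 3.34 to 3.54. TCONS_00155836 (1272 bases) had the highest fitted value at 4.17 (standard error 2.05), but did not pass (adjusted p = 0.314). Its IP was even, at 195, 218, 254 and 258 CPM in mutants, while its mutant input held 51.7, 0, 44.5 and 10.5 CPM.

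The other 2 of the 5 highest by fitted value did not pass either. TCONS_00044399 (507 bases) had 62.4, 79.2, 62.3 and 56.4 CPM in mutant IP, against 0, 37.9, 13.1 and 19.4 CPM in mutant input. TCONS_00056935 (390 bases) had 46.1, 25.1, 39.7 and 29.8 CPM in mutant IP, against 2.58, 4.98, 13.4 and 11.3 CPM in mutant input. In both the IP libraries lay above all the input libraries, and adjusted p was 0.464 and 0.0787.

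Of the members lower in mutant IP, TCONS_00132629 (5318 bases) had 27.5, 24.9, 55.0 and 25.8 CPM in mutant IP, against 337, 363, 323 and 386 CPM in mutant input, the largest called value at -3.49 (standard error 0.29, edgeR adjusted p = 0.00194). TCONS_00062426 (6228 bases) had 53.0, 42.9, 84.4 and 71.7 CPM in mutant IP, against 294, 276, 469.7 and 489 CPM in mutant input (log2 IP/input -2.60, standard error 0.12, edgeR adjusted p = 0.000808). In both, input exceeded IP in every pairing of libraries. The longest member, TCONS_00095324 (18446 bases), had 113, 77.8, 111 and 125 CPM in mutant IP, against 437, 366, 456 and 544 CPM in mutant input (log2 IP/input -2.09, standard error 0.11, edgeR adjusted p = 0.000970). Its IP and input libraries did not overlap in either genotype, since wild-type IP held 203, 159 and 120 CPM and wild-type input 559, 791 and 636 CPM. The 5 lowest fitted values, TCONS_00136478, TCONS_00062900, TCONS_00124491, TCONS_00158254 and TCONS_00071165, rest on libraries at 0 and did not pass (adjusted p 0.154 to 0.226). TCONS_00071165 (1355 bases) was the most abundant of these, with 0, 20.01, 0 and 9.01 CPM in mutant IP, against 369, 287, 246 and 275 CPM in mutant input.

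By length, the median log2 IP/input in mutants was 0.83 for the 21 members under 500 bases and 0.74 for those of 500 to under 1000 bases. It was 0.16 for 1000 to under 2000 bases, -0.28 for 2000 to under 4000 bases and -0.42 at 4000 bases or more. Levels moved with length as well, with a median wild-type input CPM of 15.6 under 500 bases and 261 at 4000 bases or more, and the part of level in these medians was not tested. Spearman's rho between log2 IP/input and length was -0.25 over 198 members, which share the same 8 libraries, and it was also -0.24 between log2 IP/input and the wild-type input CPM.

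The count of calls rested on all 4 animals. Without any 1 animal, 19 to 28 members were called higher and 10 to 16 lower. The members called higher were 28 without animal 12, 24 without 69, 19 without 93 and 23 without 94. Shares of all features in these fits are not given here, so nothing particular to the members is read from these counts. Animals 12 and 69 had the fewest entries above 0 in input. Without both, edgeR called 0 members in either direction (6 features each way over the whole table). Unadjusted p in edgeR was then under 0.05 for 59 members higher and 50 lower, against 2696 and 2547 of all features, and the members' median was -0.05. Ranked by CPM in place of TPM, the 200 members would have had 21 called higher and 57 lower, against 6.35% and 3.56% of all features. Their median log2 IP/input would have been -1.06. The sign of the median, which lay near 0 in the main fit, thus changed with the ranking. It also changed for the same members under RLE size factors, an alternative scaling of the libraries (median -0.08). DESeq2 called 58 members higher and 56 lower, where it called 13.9% and 29.9% of all features.

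Marker lists of germ and somatic cells were set beside the members. In mutants the 12 spermatogonial genes had a median log2 IP/input of 2.78 and the 15 early meiotic genes 1.33, with 3 and 32 of 198 members above those medians. The 15 late pachytene genes had a median of 0.42, with 6 below 0. The 9 round spermatid genes tested went the other way, with a median of -2.75 and 7 below 0. In wild type the round spermatid median was -1.74, with 9 of 13 below 0. A low IP/input was thus not limited to somatic lists. Somatic lists were lower still in mutants, at -5.10 for Sertoli, -4.39 for Leydig and -8.70 for macrophage genes, with 11, 14 and 3 members below them. The 13 Sertoli genes summed to 176 to 303 CPM in mutant IP, against 1150 to 1584 CPM in mutant input, with 1 gene at 0 in all 4 mutant IP libraries. The 8 macrophage genes summed to 2.16 to 11.0 CPM in mutant IP, against 151 to 204 CPM in mutant input, with 4 at 0 in all 4 mutant IP libraries. Most members lay between the somatic lists and the early meiotic list, and the part that cell type has in their IP/input was not tested.

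In wild type, where input had chosen the members, IP/input was as a description higher for 93 and lower for 30 of 200 members in edgeR, against 13% and 6.37% of all features. DESeq2 gave 111 higher and 52 lower, against 22.9% and 31.2% of all features. The median in edgeR was 0.54, against -0.60 over all features. The separate TMM scaling of this fit adds 0.31 (log2) to the ratio of the mean CPM values printed here, and in the mutant fit it differs by -0.01. These counts stood on all 3 animals, since without animal 121 or without animal 140 edgeR called no feature of the whole table. With 121 left out, unadjusted p in edgeR was under 0.05 for 98 members higher and 36 lower, against 5031 and 3136 of all features. With 140 left out these were 100 and 44 members, against 5674 and 3708 of all features. Without animal 17 the members gave 61 higher and 24 lower. The share of all features in that fit is not given here, so nothing particular to the members is read from it. All 43 members called higher in mutants were also called higher in wild type (46.2% of its 93), as were 97.7% of all features called higher in mutants. Of the 15 called lower in mutants 13 were called lower in wild type (43.3% of its 30), against 74.7% of all features called lower in mutants. These overlaps are descriptions too, since wild-type input enters them. The 2 exceptions, TCONS_00028543 and TCONS_00080720, had wild-type values of -0.18 and -0.25.

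**Figure D4:**
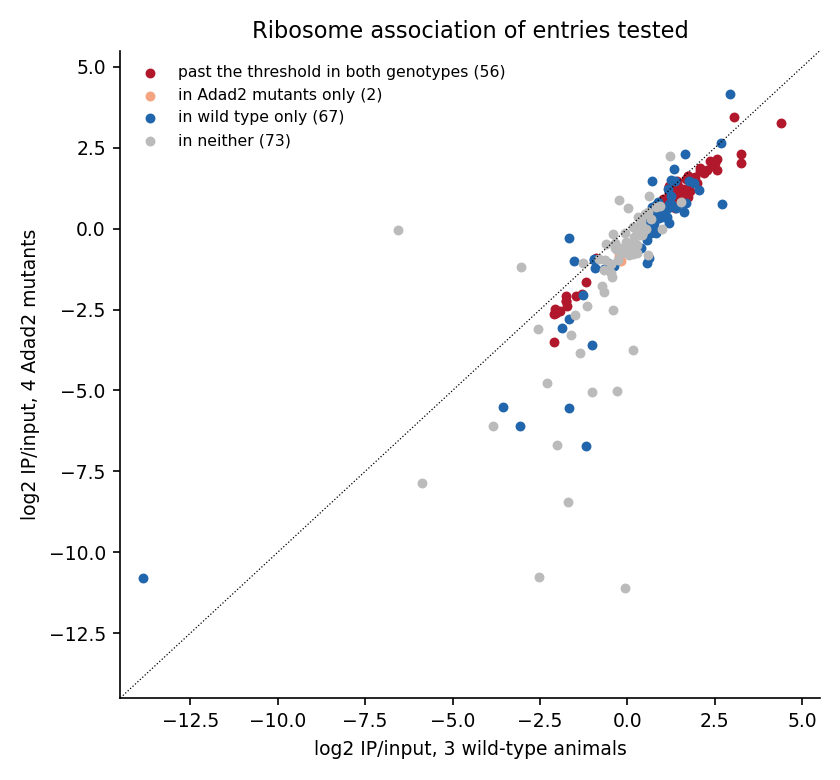
Log2 IP/input of 198 members in 4 Adad2 mutants (vertical) and in 3 wild-type animals (horizontal), with a dotted line where they are equal and colours for the genotypes in which edgeR passed an adjusted p of 0.05. For the 56 members past it in both genotypes the mutant value minus the wild-type value ran from -1.39 to 0.42 with a median of -0.46. The genotypes were scaled separately, so a shift of all points along 1 axis carries no meaning.

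Genotype was compared in IP, where no library took part in the rule. All members but 1 were tested, edgeR called 0 of them, and the lowest adjusted p was 0.114. Of all 26186 features 0.00382% were called higher and 0.00382% lower (0.00764% together). At an unadjusted p under 0.05 it gave 1 member higher and 18 lower (9.55% of those tested), against 1.34% and 10.3% of all features, so the share among members was near the background. DESeq2 called 2 members higher and 5 lower, against 1.63% and 7.94% of all features. The median log2 difference of mutant to wild type was -0.25 (quartiles -0.54 and 0.02), against -0.15 over all features, and 55 members lay above 0. In 182 members the difference was within 1 log2 unit. The members' median thus lay below 0 as that of all features did. Since edgeR called only 2 of the 26186 features, the absence of calls among members does not show that their levels were alike.

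The smallest p belonged to TCONS_00087029 (2372 bases), which had 48.3, 83.0, 63.4 and 47.0 CPM in mutant IP, against 117, 146 and 122 CPM in wild-type IP. All 4 mutants lay below the wild-type range, with a log2 difference of -1.06 (standard error 0.22, edgeR adjusted p = 0.114). DESeq2 gave it an adjusted p of 0.00119. TCONS_00053760, the second member by level, had 438, 357, 401 and 359.5 CPM in mutant IP, against 562, 599 and 491 CPM in wild-type IP (log2 difference -0.48, standard error 0.11, adjusted p = 0.114 in edgeR and 0.0116 in DESeq2). TCONS_00063776 (1379 bases) had 95.8, 89.3, 87.0 and 97.8 CPM in mutant IP, against 142, 122 and 126 CPM in wild-type IP (log2 difference -0.47, standard error 0.11, adjusted p = 0.114). In each of the 3 entries no mutant reached a wild-type animal.

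TCONS_00063661 (1825 bases) had 30.8, 31.6, 21.8 and 28 CPM in mutant IP, against 44.6, 46.7 and 50.2 CPM in wild-type IP (log2 difference -0.73, standard error 0.21, edgeR adjusted p = 0.121). TCONS_00114174 (508 bases) was at 0 in all 4 mutant IP libraries, against 316, 156 and 106 counts, or 11.1, 6.46 and 4.57 CPM, in wild-type IP. With 0 read as 3 counts per library this is at least 72.1-fold lower, a bound for counting error only, with an edgeR adjusted p of 0.114. In input it had 0, 2.56, 9.89 and 6.64 CPM in mutants and 16.3, 15.3 and 14 CPM in wild type, again without overlap. The median of the members is the same with this entry at its bound.

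On the other side, TCONS_00163876 (651 bases) had 45.2, 53.6, 90.3 and 90.3 CPM in mutant IP, against 37.6, 49.0 and 30.4 CPM in wild-type IP (log2 difference 0.86, standard error 0.31, edgeR adjusted p = 0.256, DESeq2 adjusted p = 0.0208). Animals 69, 93 and 94 lay above the wild-type range, and animal 12 lay within it. TCONS_00007101 (2220 bases) had 514, 399.9, 536 and 623 CPM in mutant IP, against 393, 471 and 409 CPM in wild-type IP (log2 difference 0.31, standard error 0.15, edgeR adjusted p = 0.568, DESeq2 adjusted p = 0.0495). TCONS_00096513, TCONS_00090792 and TCONS_00002980 had log2 differences of 0.56, 0.68 and 0.54, with edgeR adjusted p from 0.523 to 0.783. In each of these 5 members 1 mutant, animal 12 or 69, lay below the highest wild-type animal.

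**Figure D5:**
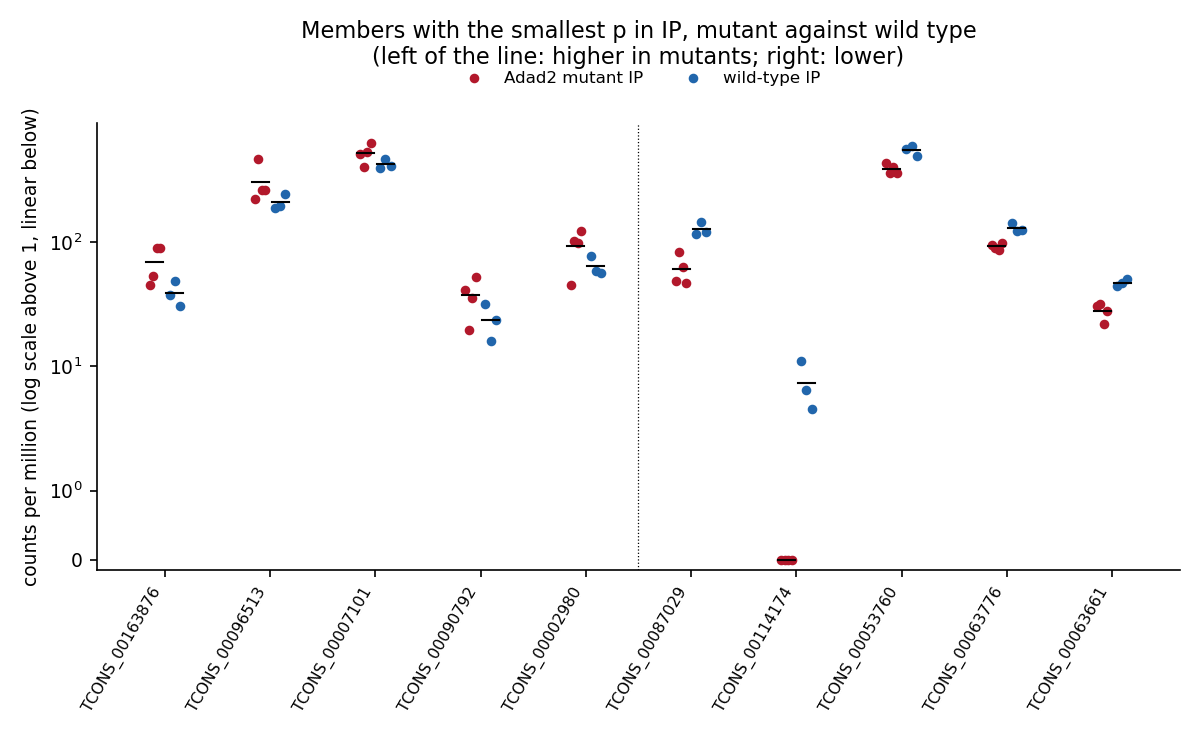
CPM in each IP library (vertical, log scale above 1 and linear below) of the 10 members with the smallest p between genotypes in IP, 5 higher in mutants to the left of the dotted line and 5 lower to the right, with mutants in red and wild type in blue and black bars for group means. The 5 lower members separate the genotypes, with TCONS_00114174 at 0 in all 4 mutants, and the 5 higher members overlap.

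Every mutant IP library lay below every wild-type IP library in 37 members (18.5%), against 15.1% of all features, and every one lay above in 0 members, against 1.72%. Of the 37, 30 were above 0 in all IP libraries. The median log2 difference of the 37 was -0.73. Marker lists differed between genotypes in IP as well. The 12 spermatogonial genes had a median log2 difference of 0.42, with 10 above 0, and summed to 646 to 1018 CPM in mutant IP, against 605 to 757 CPM in wild-type IP. The 15 early meiotic genes had a median of 0.10, with 9 above 0. The 15 late pachytene genes had a median of -0.56, all 15 below 0, and summed to 7357 to 8296 CPM in mutant IP, against 10250 to 11562 CPM in wild-type IP. This list includes the mutated gene Adad2, whose log2 difference of -3.44 was the lowest of the 15. The 7 round spermatid genes tested had a median of -1.30, all 7 below 0, and the whole list of 15 summed to 109 to 148 CPM in mutant IP, against 216 to 225 CPM in wild-type IP, with 8 of 15 at 0 in all 4 mutant IP libraries. Among somatic lists, the median in IP was -0.49 for Sertoli genes (8 of 12 below 0) and -0.43 for Leydig genes (6 of 7). It was -0.43 for myoid and stroma genes (6 of 9), -0.19 for macrophage genes (3 of 6) and 0.14 for vessel and blood genes (2 of 5). Of the members tested, 50 lay below the late pachytene median and 9 below the round spermatid median. In bulk testis, fewer cells of a type and less RNA per cell cannot be told apart, and the part of cell composition in the members' values was not tested.

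In input, where wild type had chosen the members and a lower mutant value is favoured by that choice, the median log2 difference of mutant to wild type was -0.22, against -0.18 over all features. As a description from which nothing is read, edgeR called 0 members (of all features 0.00547% higher and 0.00273% lower, 0.0082% together), with unadjusted p under 0.05 for 10 higher and 27 lower, against 1.6% and 4.76% of all features. DESeq2 called 8 higher and 11 lower, against 0.962% and 2.16% of all features. TCONS_00002980 (4780 bases) had 322, 456, 521 and 569 CPM in mutant input, against 243, 274 and 265 CPM in wild-type input. All 4 mutants lay above wild type, as they did for 7 members in all (3.5%, against 2.47% of all features). TCONS_00056167 (8819 bases) had 331, 264, 417 and 375 CPM in mutant input, against 564, 670 and 552 CPM in wild-type input. It was among 39 members without overlap in that direction (19.5%, against 11.3%).

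Marker lists moved in input too. The 13 round spermatid genes tested had a median log2 difference of -1.38, all 13 below 0, and the list summed to 170.0 to 206 CPM in mutant input, against 316 to 398 CPM in wild-type input. The 15 late pachytene genes had a median of -0.45, all 15 below 0, and summed to 3899 to 4379 CPM in mutant input, against 5380.4 to 5864 CPM in wild-type input. The mutated gene Adad2 is in this list and was the lowest of the 15 in input too, at -1.76. Somatic lists went the other way, with medians of 0.37 for Sertoli genes (11 of 12 above 0), 0.41 for macrophage genes (8 of 8) and 0.54 for vessel and blood genes (7 of 8). The Sertoli genes summed to 1150 to 1584 CPM in mutant input, against 962 to 1099.9 CPM in wild-type input. The part of these shifts in the members' input values was not tested.

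By size alone, the highest fitted differences in input were 1.12 for TCONS_00090792, 0.95 for TCONS_00138129 and 0.91 for TCONS_00091521. The lowest were -1.90 for TCONS_00026985, -1.68 for TCONS_00114174 and -1.54 for TCONS_00074589, each of which was at 0 in 1 mutant input library. TCONS_00074589 (2227 bases) had 64.9, 0, 23.9 and 14.3 CPM in mutant input, against 77.9, 78.4 and 71.3 CPM in wild-type input. The mutants were all lower and spread widely.

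The difference between genotypes in IP/input, fitted as an interaction of fraction and genotype over 16015 features that had counts in each of the input libraries, used wild-type input too. It covered 188 members with a median of -0.18, against -0.29 over all features. As a description, edgeR called 0 members and 0 features, and at an unadjusted p under 0.05 it gave 1 member higher and 9 lower, against 0.475% and 6.74% of all features, while DESeq2 called 1 higher and 3 lower, against 0.212% and 5.9% of all features. The largest fitted values, -9.20 for TCONS_00136478 and 7.32 for TCONS_00138129, are those of the 2 entries with mixed zeros described above.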

How the data were processed

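RNA from testes of 7 mice at 21 dpp was sequenced as 14 stranded, ribosomal RNA-depleted total RNA libraries. The authors ran RSEM 1.3.3 on Ensembl transcripts of GRCm38 with assembled testis transcripts added, and deposited its expected counts, which carry no normalization. The deposited TPM come from the same RSEM run and are scaled over all entries of a library. FPKM values were deposited too and not analysed here. Each deposited entry is 1 transcript. Reads that fit several entries were divided between them by RSEM, so a count of a member can move to another entry.

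With GENCODE M21, 133445 Ensembl transcripts were summed by gene symbol and 404 kept singly, and each assembled entry stayed 1 feature, which gave 102531 features. Counts were rounded and tested with edgeR 4.0.16 (TMM, filterByExpr, robust quasi-likelihood, R 4.3.3), with Benjamini-Hochberg adjustment over all features tested and a threshold of 0.05. CPM printed per library share TMM factors of all 14 libraries, while each comparison was scaled on its own libraries. Depth was 22987974 to 30871330 counts a library. Bounds for groups at 0 take 3 counts per library. IP and input of 1 animal were paired by the animal number in the labels, and their deviations from the group means correlated at 0.01 to 0.07. The replicates are separate animals. The number of comparisons was 5, of which 2 leave out wild-type input.

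Alternatives were DESeq2 1.42.0, limma 3.58.1 on log2(TPM + 0.1) and log2(TPM + 1), upper-quartile scaling, other filters, 1 feature per entry, no replicate block, other rankings, and leaving out each animal. Leaving out animals 12 and 69 together was chosen after seeing the data. Members and lists were chosen with earlier results of these data known. Members named are the 12 highest by level, the 3 shortest and longest, those at the edge of the rule, the 5 highest and lowest by IP/input in mutants, the 5 of smallest p in each direction between genotypes in IP, the 3 highest and lowest in the other comparisons, and up to 5 at 0 in a library. TCONS_00132629, TCONS_00062426, TCONS_00028543, TCONS_00080720 and the identical pair were named after their values were seen. The fits were tested on simulated data.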

Additional observations from a re-analysis of the deposited data

Results flagged for a closer look

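In groups of 4 mutant libraries, 12 of 96 examined held 1 library far from the other 3 by Dixon's test. The nominal rate of that test, about 1 in 20, holds for unselected values. The flagged entries are among the members named above, several of them for extreme values. The share flagged therefore cannot be set against that rate, and no excess over chance is read from it. The values given here are TPM. In mutant IP, TCONS_00144636 was high in animal 12 (3047, with the lowest at 1820), and TCONS_00060434 was low in animal 69 (945.4, with the highest at 1548). TCONS_00096513 was high in IP of animal 69 (125.6, with a median of 66.3) and low in input of animal 12 (18.27, with a median of 59.6). TCONS_00074589 was high in IP of animal 69 (15.2, with a median of 6.22).

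In 4 entries a single mutant IP library was above 0 while the other 3 were at 0. These were TCONS_00136478 in animal 94 (22.39), TCONS_00062900 in animal 69 (10.56), TCONS_00124491 in animal 12 (20.62) and TCONS_00158254 in animal 12 (19.23). In mutant input, animal 69 was high for TCONS_00124491 (52.89) and TCONS_00158254 (88.94) and low for TCONS_00095406 (345.1, with a median of 428). Animals 12 and 69 held the far library in all of these but the one of animal 94.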

How the results depend on the processing

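With no replicate block, IP/input in mutants gave 48 members higher and 17 lower (median 0.16), IP/input in wild type 97 and 33 (median 0.56), and the interaction 0 and 0 (median -0.14), so the pairing of IP and input by animal changed no count of members by over 1.5 times. Over all features the interaction gave 2 higher and 386 lower with no replicate block, against 0 and 0 with it. For IP/input in mutants, limma on TPM moved the median to 0.98 (pseudocount 0.1) and 0.96 (pseudocount 1) with 95 and 99 members higher. The median of all features moved as well, to 0.34 and 0.32, and the members lay 0.64 above it in both, against 0.68 with TMM. RLE size factors gave a median of -0.08, against -0.76 over all features. With 1 feature per entry 19 were called higher, and with 10 counts in every library 35 lower. DESeq2 called 56 lower, against 29.9% of all features. Members ranked by CPM gave 21 higher and 57 lower (median -1.06), against 6.35% and 3.56% of all features. Without animals 12 and 69 edgeR called 0 and 0, against 6 features each way. Leaving out 1 animal gave 19 to 28 higher, 10 to 16 lower and medians from -0.02 to 0.16. Counts of members in this section that stand without a share of all features are descriptions, and nothing particular to the members is read from them.

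For IP/input in wild type the median was 0.41 with 10 counts in every library, 0.48 with an effective length of at least 100, 0.92 and 0.91 with limma, 0.46 with upper-quartile factors and -0.61 with members ranked by CPM. That ranking called 48 higher and 73 lower, against 13% and 6.37% of all features. Lower calls were 19 with 1 feature per entry, 54 with 10 counts in every library and 52 with DESeq2, which called 31.2% of all features lower. Leaving out 1 animal gave 0 to 61 higher, 0 to 24 lower and medians from 0.44 to 0.52.

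Between genotypes in IP, the median was -0.10 with 10 counts in every library and -0.41 with members ranked by CPM. DESeq2 called 2 higher and 5 lower (1.63% and 7.94% of all features), and limma called 2 and 1 lower at pseudocounts of 0.1 and 1. With no filter edgeR called 0 members in IP, against 5 features higher and 71 lower. In input, limma gave medians of -0.50 and -0.49, DESeq2 called 8 higher and 11 lower (0.962% and 2.16% of all features), and no filter gave 2 lower. For the interaction DESeq2 called 1 higher and 3 lower (0.212% and 5.9% of all features), and 2 were lower without animals 12 and 69. Leaving out 1 animal, edgeR called 0 members in these 3 comparisons. With unadjusted p under 0.05 there were then 0 to 5 higher and 9 to 42 lower in IP, 5 to 17 and 17 to 36 in input, and 0 to 3 and 6 to 20 for the interaction.

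Of 550 values of single members under alternatives, 490 kept direction and side of the threshold, 15 lost the call, 42 gained one and 3 reversed. In both genotype comparisons and the interaction no member was called in the main fit. A kept side there means no call in either fit, so the 490 do not measure how stable calls were. TCONS_00138129 reversed to 0.28 for IP/input in wild type with no replicate block and to -0.12 between genotypes in input without animals 12 and 69, and TCONS_00062900 to -0.046 in the interaction without animal 69, with up to 5.76 without another animal. Ranking by CPM shared 88 of the 200 members. The cause of these shifts was not tested.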
